A study of Mus musculus with 6 samples.

Results

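The experiment used combinatorial indexing (sci-RNA-seq3) on fixed mouse T-cell progenitors, and the labels call it both single cell and nuclear RNA. Deep barcodes were those of high RNA yield that also passed a mitochondrial limit. They were chosen by 3 measured values, namely at least 200 detected genes, more than 2000 unique molecular identifiers (UMIs, which count RNA molecules) and at most 30% of UMIs on mitochondrial genes. Of 61119 barcodes that passed the gene and mitochondrial limits, 448 were deep (0.733%, exact 95% interval 0.667% to 0.804%). The study's own filter leaves these barcodes out. The other 60671 barcodes, of at most 2000 UMIs, are called shallow here and served as the comparison.

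The progenitors came from CD117-enriched bone marrow of mice aged 2 to 4 months, males and females combined, pooled from 6 to 8 mice per batch. Wild-type (WT) animals were C57BL/6 with both Bcl11b copies carrying a yellow fluorescent reporter, and ΔTE animals (labelled Del_TE) carried that reporter on both copies and lacked the Bcl11b timing enhancer on both. Progenitors were grown on OP9-DL1, a mouse stromal line that presents the Notch ligand DL1, sorted as DN1 (CD44+ CD25-), DN2a (CD44+ CD25+ Bcl11b-) or DN2b (CD44+ CD25+ Bcl11b+), and cultured again on OP9-DL1 for 4 days with Flt3 ligand, IL-7, IL-2, SCF and IL-15. Each of the 6 libraries held 1 genotype and 1 start, so there was 1 library per condition, and the 3 reverse-transcription wells of a library were technical. Before fixation the cells were washed and filtered to limit carry-over of stromal cells, and OP9-DL1 is of mouse origin too, so its RNA cannot be told apart from that of the progenitors by genome.

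In combinatorial indexing a barcode stands for the wells through which a cell or nucleus passed, and those that shared every well carry the same barcode. DN1 cells are uncommitted precursors, DN2a cells have entered the T-cell programme without Bcl11b, and DN2b cells have switched on Bcl11b, the zinc-finger factor that marks T-lineage commitment. Stromal cells are recognised by collagens, the chemokine Cxcl12 and platelet-derived growth factor receptors, and blood cells by Ptprc (CD45), Ikzf1 and the signalling adaptors of leukocytes. These 2 sets of genes are normally expressed in separate cells.

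The deep barcodes were few in every library. They numbered 80 in WT DN1, 117 in WT DN2a, 51 in WT DN2b, 92 in ΔTE DN1, 93 in ΔTE DN2a and 15 in ΔTE DN2b. As a share of the filtered barcodes of the library, the lowest value was in ΔTE DN2b (0.439%, exact 95% interval 0.246% to 0.723%) and the highest in WT DN2b (1.02%, 0.757% to 1.33%). Between these lay WT DN2a (0.597%), WT DN1 (0.727%), ΔTE DN2a (0.796%) and ΔTE DN1 (0.886%), and each interval overlapped those of its neighbours in that order. These shares were not tested, since each condition had 1 library. The order turned on the mitochondrial limit: without it ΔTE DN2b stood at 2.80% and the lowest was WT DN2a at 0.665%. The shares of single wells ran, for example, from 0.571% to 0.926% in ΔTE DN2a and from 0.766% to 1.25% in WT DN2b. Wells of these libraries held as few as 16 and 9 deep barcodes, and the spread between wells was not tested.

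**Figure D1:**
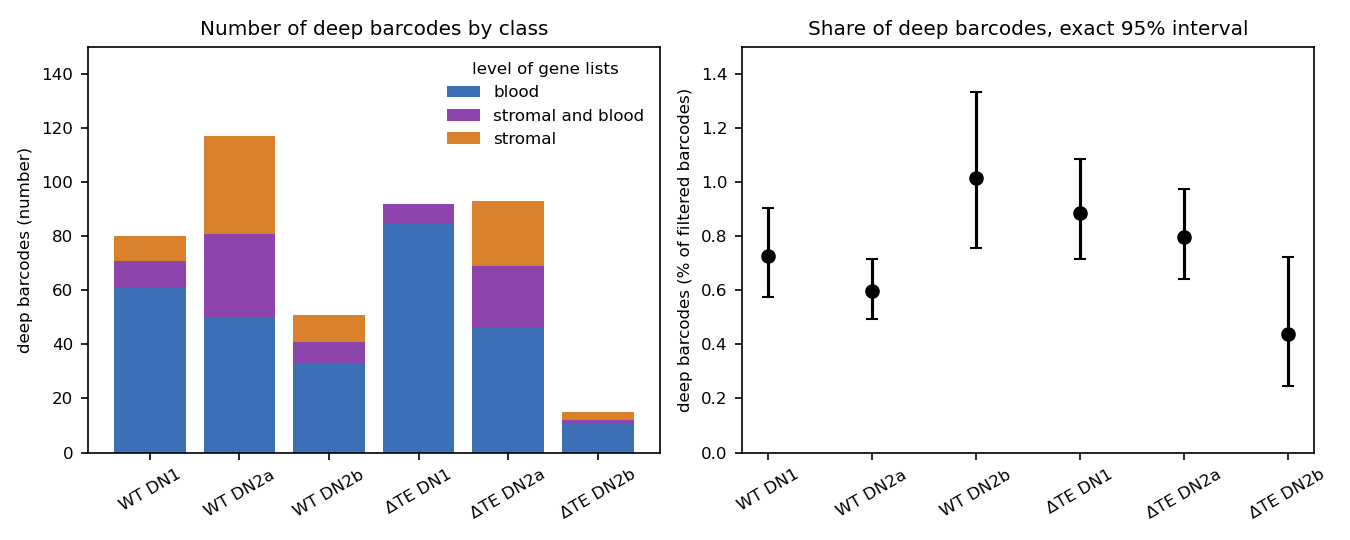
Number of deep barcodes in each library, split by the level of stromal and blood genes (left, bars from 0), and deep barcodes as a percentage of all filtered barcodes with exact 95% binomial intervals (right). WT DN2a had the most deep barcodes (117) and ΔTE DN2b the fewest (15), and the stromal classes were largest in the DN2a libraries of both genotypes.

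The median deep barcode held 2505.5 UMIs and 1450.5 genes, against 434 UMIs in the median shallow one, and 223 of the 448 lay at or below 2500 UMIs. There were 35 above 5000 and 5 above 10000 UMIs, and the largest, in WT DN2a, held 15252. The deep barcodes, 0.733% of filtered barcodes, held 4.08% of the filtered UMIs. Just inside the limit, 57 barcodes had 2001 to 2100 UMIs, and just outside it, 94 had over 1900 and up to 2000. These values chose the barcodes and are given as a description only.

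The mitochondrial limit removed far more barcodes than it kept at this depth. Of 1700 barcodes with more than 2000 UMIs, 1252 exceeded 30% mitochondrial UMIs, so that 26.4% were kept. The kept share was 87.3% in WT DN2a and 6.64% in ΔTE DN2b. It was 16.3% in WT DN1 and 38.3% in ΔTE DN1, and 51 of 318 were kept in WT DN2b and 93 of 291 in ΔTE DN2a. Among the kept barcodes the median mitochondrial share was 15.8% in WT DN2a and between 23.4% and 26.2% in the other 5 libraries. It was higher than in the shallow barcodes of the same library in each of the 6. Barcode names include the reverse-transcription well, and each library had its own 3 of the 18 wells, so no name could be shared between libraries. The combination of the other wells (PCR and ligation) was also used in another library for 274 of the 448 deep barcodes.

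Stromal genes were higher in deep than in shallow barcodes of every library. The list of 20 stromal genes (collagens, Bgn, Fstl1, Cxcl12, Pdgfra, Pdgfrb and others) made up 9649 UMIs in every 1000000 non-mitochondrial UMIs (CPM) over all deep barcodes and 2110 CPM over all shallow ones. By library the deep and shallow levels were 5675 and 947 CPM in WT DN1, 13474 and 3783 in WT DN2a, and 10855 and 1549 in WT DN2b. In ΔTE they were 1433 and 545 CPM in DN1, 14229 and 2638 in DN2a, and 5988 and 704 in DN2b. The list was higher in deep barcodes in 6 of 6 libraries, from 2.63-fold in ΔTE DN1 to 8.51-fold in ΔTE DN2b, and every exact counting interval of the log2 ratio lay above 0.

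Deep and shallow barcodes were then compared gene by gene over the 6 libraries (edgeR quasi-likelihood fit with a term for library, mitochondrial genes left out, Benjamini-Hochberg adjustment). Of 9118 genes tested, 931 were higher in deep barcodes (10.2%) and 394 were lower (4.32%) at an adjusted p below 0.05, and the median gene had a log2 ratio of -0.02. Without WT DN2a, the library with the most deep UMIs, the counts were 547 and 123, and the lower genes numbered 254 without WT DN2b and 164 without ΔTE DN2a. Of the 20 stromal genes 16 passed the filter on low counts and 16 rose, with a median log2 ratio of 2.30. The other 4 were left out by that filter: Lum, Tnc, Dcn and Postn, all extracellular matrix genes, had 0, 1, 2 and 21 UMIs in the deep barcodes. With no filter 17 of the 20 rose. The most precisely measured was Fstl1, a secreted glycoprotein of mesenchyme, at 606, 1466 and 1330 CPM in deep barcodes of WT DN1, DN2a and DN2b against 86.6, 389 and 161 CPM in shallow ones. In ΔTE it stood at 200.2, 1560 and 465 CPM against 45.8, 265 and 58.6 CPM. Its log2 ratio was 2.56 ± 0.11 (SE, adjusted p = 5.36e-35, edgeR).

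Col1a1, the main collagen of connective tissue, had a log2 ratio of 2.41 ± 0.12, and Cxcl12, which retains haematopoietic cells in marrow, one of 2.16 ± 0.11. Bgn, a matrix proteoglycan, reached 2671 CPM in ΔTE DN2a deep barcodes and 185 CPM in ΔTE DN1, against 483 and 74.0 CPM in the shallow barcodes of those libraries. Each of these genes was higher in deep barcodes of all 6 libraries. Ebf1, a transcription factor of B cells that mesenchymal cells also use, rose with them by 2.44 ± 0.13, from 25.9 to 152 CPM in shallow barcodes to 123 to 632 CPM in deep ones. It was the only gene of the 8 on the B-cell list with enough counts for a test.

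By size alone, among genes with at least 300 UMIs that moved the same way in all 6 libraries, the 10 largest rises were Clmp, Hmox1, Foxc1, Atoh8, Mtss2, Arhgef12, Mmp2, Sdc2, Prrx1 and Mmp14. Clmp, an adhesion molecule, led with a log2 ratio of 2.85 ± 0.23. Prrx1, a transcription factor of limb and connective tissue mesenchyme, spanned 133 to 724 CPM in deep barcodes and 28.2 to 186 CPM in shallow ones, a log2 ratio of 2.62 ± 0.13. Mmp2 and Mmp14, which degrade matrix, rose by 2.64 ± 0.17 and 2.62 ± 0.14. None of the 10 is on the blood lists.

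The 10 largest falls were Anxa11, Snrnp25, Arfgef3, Tnfrsf18, Tmem80, Rfx2, Paqr3, Clec12a, Wdr78 and Ptgir. Most rested on few molecules, since deep barcodes held between 6 and 18 UMIs of 9 of these genes. The best counted was Clec12a, an inhibitory lectin receptor of myeloid cells, with 48 deep UMIs, at 25.1 to 116 CPM in deep barcodes against 68.9 to 134 CPM in shallow ones (log2 ratio -1.15 ± 0.21, adjusted p = 6.79e-06, edgeR). Of the 10 falls, 7 were lost without WT DN2a and 7 without ΔTE DN2a, and 6 of the 8 with an adjusted p were lost by DESeq2. Clec12a and Snrnp25 passed in all 3.

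Of the 22 pan-blood genes, 11 fell (8 by DESeq2), none rose, and the median log2 ratio was -0.35. Over all genes tested 4.32% fell. The summed list was lower in deep barcodes in 6 of 6 libraries, most in WT DN2a (5708 against 9005 CPM) and ΔTE DN2a (5977 against 9013 CPM) and least in ΔTE DN1 (8759 against 9565 CPM). Dock2, which drives leukocyte migration, fell by 0.49 ± 0.10 on the log2 scale (adjusted p = 5.97e-05, edgeR), with 396 and 377 CPM in the DN2a libraries of WT and ΔTE against 696 and 695 CPM in shallow barcodes. Ptprc fell by 0.30 ± 0.10 and was lower in 5 of the 6 libraries. The DN2a libraries, which had the least of this list in deep barcodes, had the most stromal RNA, and both lists are parts of 1 total. Without WT DN2a the list had 4 genes that fell.

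Of 20 T-lineage genes tested of 22, 7 fell (Cd3g, Il7r, Cd247, Gata3, Lat, Thy1 and Bcl11b) and 1, Notch3, rose, with a median log2 ratio of -0.34. Over all genes tested 4.32% fell and 10.2% rose. The T-lineage genes that fell numbered 3 without WT DN2a and 2 without ΔTE DN2a, and 2 by DESeq2. Il7r, the IL-7 receptor, fell by 0.65 ± 0.17, and Gata3, a T and innate lymphoid regulator, by 0.41 ± 0.13. Il2ra, which encodes CD25, ran from 2267 to 2894 CPM in deep and from 2128 to 3940 CPM in shallow barcodes, and its log2 ratio of -0.23 ± 0.09 did not pass (adjusted p = 0.0605, edgeR). Notch3 is also a gene of vascular mural cells and stood at 0.00 CPM in the deep barcodes of ΔTE DN2b.

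Of 11 genes tested of the 22 on the innate lymphoid (ILC) and natural killer (NK) list, 5 fell, namely Nkg7, Gzmb, Gzma, Cd160 and Fcer1g, and Rora rose. The falls numbered 3 by DESeq2, 3 without WT DN2a and 2 without ΔTE DN2a. Cd160, a receptor of cytotoxic cells, was lower in all 6 libraries (log2 ratio -0.84 ± 0.17, adjusted p = 0.000109, edgeR), and Rora, a nuclear receptor of ILCs and of mesenchyme, was higher in all 6 (0.81 ± 0.16). Of the 11 progenitor genes tested, 1 (Erg) fell, and Kit (-0.23 ± 0.12) and Myb (-0.20 ± 0.09) did not pass. Mpo fell among 5 myeloid genes tested, and Cpa3 among 3 mast-cell, basophil and megakaryocyte genes. The calls of Erg, Mpo and Cpa3 were all lost by DESeq2. Over all genes tested 4.32% fell, so 1 call on a list this short is not read as a change of that list. The 1 erythroid gene tested did not pass, and neither did the 4 Y-linked genes (median log2 ratio 0.14, 0 called by DESeq2 and 0 at an unadjusted p below 0.05). Neither the 9 antigen-presenting genes nor the 8 neutrophil genes had the counts for a test. The antigen-presenting list gave 17 UMIs in all deep barcodes, a level with an exact Poisson interval of 9.34 to 25.7 CPM, against 68.7 CPM in shallow ones (65.5 to 72.0). Of the 9 genes on the RNA-quality and stress list 3 were tested, and Egr1 and Jun, immediate early genes, rose by 1.11 ± 0.32 and 1.24 ± 0.36, each in 4 of 6 libraries. Neither passed without WT DN2a or by DESeq2.

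**Figure D2:**
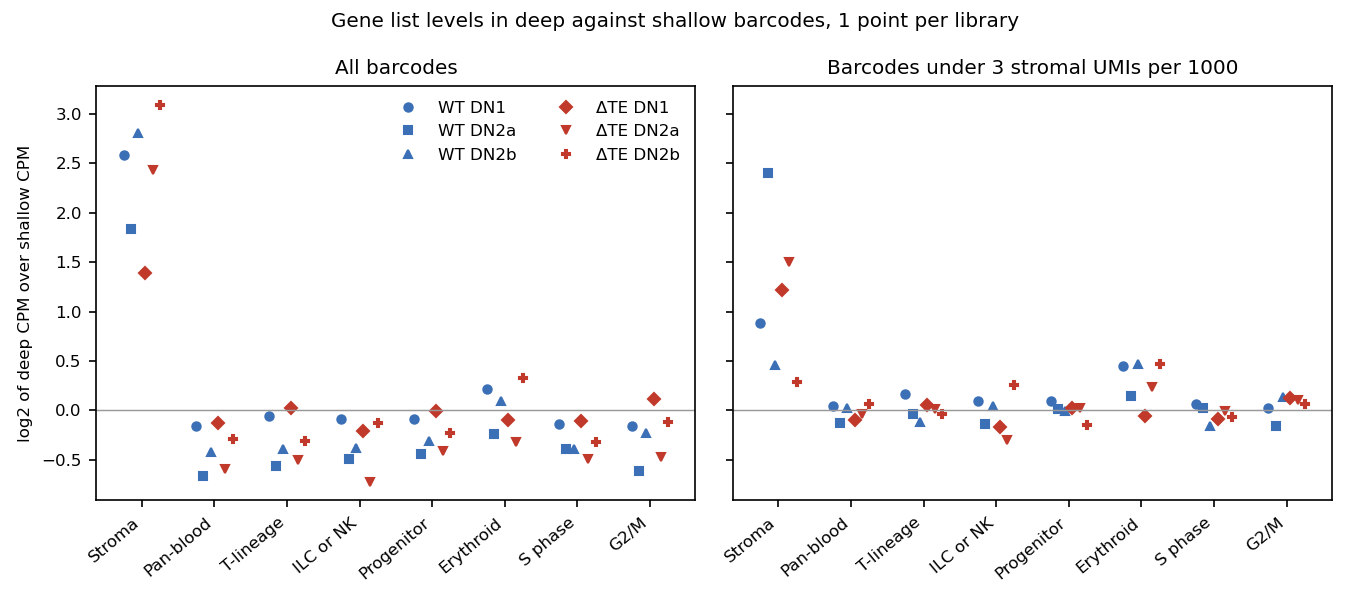
The log2 ratio of deep to shallow CPM for 8 gene lists, 1 point per library, over all barcodes (left) and after barcodes with 3 or more stromal-list UMIs per 1000 UMIs were left out (right). On the left the stromal list lies between 1.39 and 3.09, and on the right the T-lineage list lies between -0.12 and 0.16.

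Stromal genes were not spread evenly over the deep barcodes. Of the 448, 179 had no stromal-list UMI, 77 had 1 or 2, 29 had 3 to 15, and 163 had 16 or more, up to 255. A level of 5 stromal-list UMIs per 1000 UMIs, set after these values were seen, was therefore used to describe 162 barcodes (36.2%) as bearing stromal RNA, and 27 barcodes lay near it, between 2 and 8 per 1000. The pan-blood level among the 162 was continuous: 82 had under 2 blood-list UMIs per 1000 and 80 had 2 or more, with 56 between 1 and 3, so the line between these 2 classes is arbitrary.

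By these levels the deep barcodes fell into a blood class of 286 (63.8%), a class with both of 80 (17.9%) and a stromal class of 82 (18.3%), and none was under both levels. The names give levels and not absence, since blood barcodes held up to 41 stromal UMIs and stromal ones up to 11 blood UMIs. In WT the numbers for blood, both and stromal were 61, 10 and 9 in DN1, 50, 31 and 36 in DN2a, and 33, 8 and 10 in DN2b. In ΔTE they were 85, 7 and 0 in DN1, 46, 23 and 24 in DN2a, and 11, 1 and 3 in DN2b. Stromal RNA was thus borne by the most deep barcodes in the DN2a libraries of both genotypes, and by 7 of 92 in ΔTE DN1. Barcodes of 1000 to 2000 UMIs gave 86.2% blood, 4.98% both, 7.89% stromal and 0.963% neither (n = 4155). Of the 35 barcodes above 5000 UMIs, 12 bore stromal RNA, and the largest of all was not among them.

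**Figure D3:**
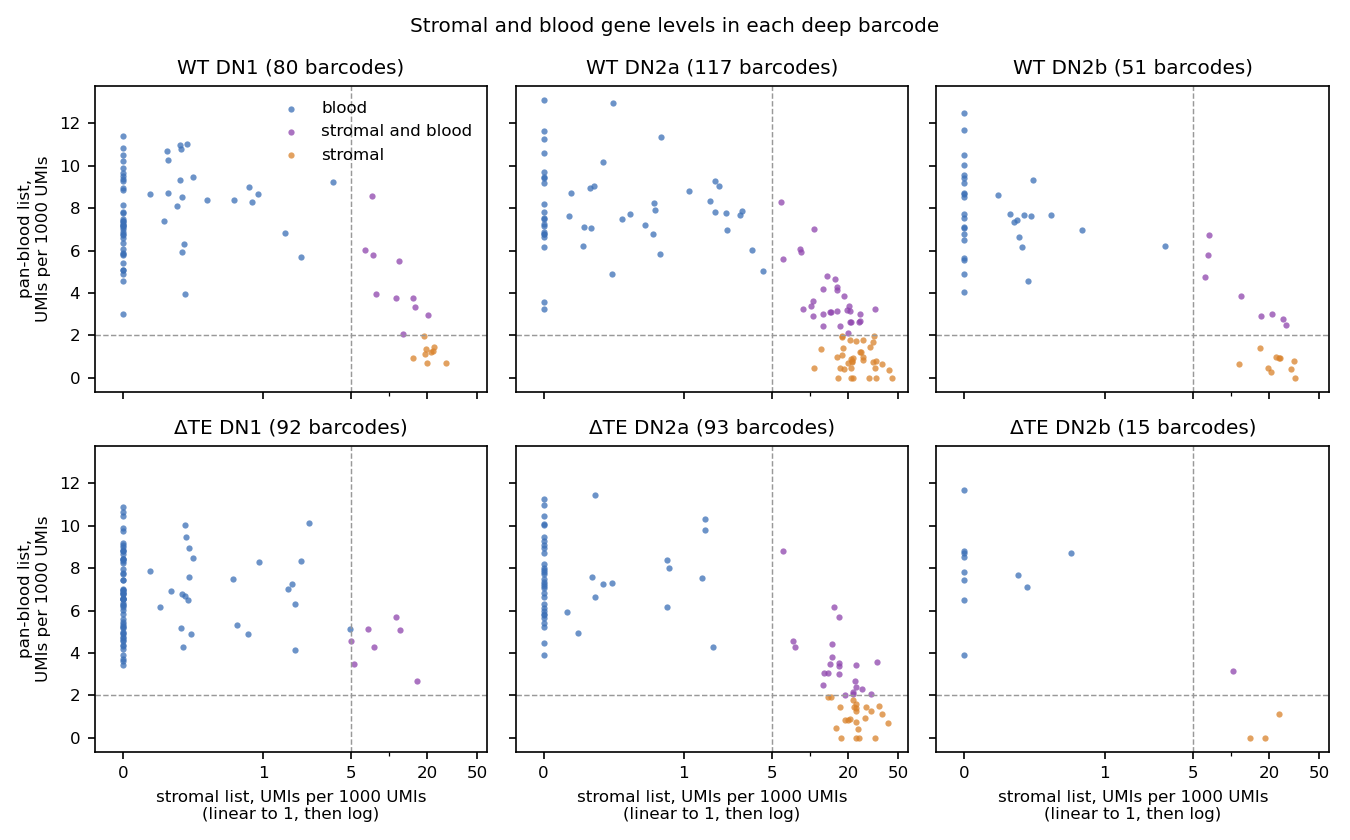
Stromal-list UMIs (horizontal, linear to 1 and then logarithmic) and pan-blood-list UMIs (vertical, linear), each per 1000 UMIs, in every deep barcode, by library. Dashed lines mark 5 and 2 per 1000. Most points lie at 0 stromal UMIs or beyond 5 per 1000, and beyond that line the blood level is lower where the stromal level is higher.

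In the class with both, each list stood between its levels in the other two. The median barcode with both held 14.7 stromal and 3.41 blood UMIs per 1000, against 22.2 and 0.910 in stromal barcodes and 0 and 7.45 in blood barcodes. The class limits fix part of that order. The T-lineage and G2/M lists did not define the classes and also stood between, while Cd3g was level with the blood class. The T-lineage list was at 4106 CPM (exact Poisson interval 3828 to 4399) in barcodes with both, 1620 CPM (1450 to 1804) in stromal ones and 6581 CPM (6387 to 6780) in blood ones. Cd3g, a CD3 chain, was at 213 CPM in barcodes with both and 214 CPM in blood barcodes, and at 14.7 CPM in stromal ones (3.03 to 42.9). Ebf1 ran the other way, with 752, 1355 and 36.4 CPM in barcodes with both, stromal barcodes and blood barcodes. The G2/M list stood at 4340 CPM in barcodes with both, 1894 CPM in stromal ones and 8167 CPM in blood ones. The classes pool libraries in unequal shares, with 61 and 85 of the 286 blood barcodes from the DN1 libraries and 31 and 23 of the 80 with both from the DN2a libraries, so class and start population are mixed in these values. The intervals cover counting error only, and cells of 1 library are not replicates of a condition.

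Stromal barcodes were not free of blood RNA, nor blood barcodes of stromal RNA. The stromal class still had 1204 CPM of the pan-blood list and the blood class 594 CPM of the stromal list, against 9476 and 30153 CPM where the lists were at home. The class limits cap the 1204 and 594 CPM, since each of these classes was defined in part by a low level of the other list. These values are therefore not a measured background for barcodes with both.

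To compare barcodes of unequal depth, each was thinned at random to 300 UMIs and scored for at least 1 UMI on both lists. Mitochondrial UMIs were part of this draw, unlike CPM. Their median share was higher in deep than in shallow barcodes of each library, for example 26.2% against 22.3% in WT DN1. The deep barcodes thus tended to keep fewer other UMIs among the 300. Both lists were seen in 18.8% (WT DN1), 30.8% (WT DN2a), 21.6% (WT DN2b), 10.9% (ΔTE DN1), 23.7% (ΔTE DN2a) and 13.3% (ΔTE DN2b) of deep barcodes. The shallow values in the same order were 5.48%, 8.49%, 5.03%, 4.43%, 5.45% and 3.20%. The mean difference was 14.5 percentage points (SD 5.72, n = 6 libraries), higher in 6 of 6 (exact two-sided permutation test over libraries, p = 0.0312, the smallest it can give, adjusted p = 0.0469 over 3 shares). Without thinning the deep share was between 33.3% and 76.9% and the shallow share between 6.15% and 11.7%. With at least 2 UMIs required on each list the difference was 4.31 points and no longer passed (exact p = 0.0625).

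A rise of stromal barcodes alone raises this share, so the blood genes were also counted within stromal barcodes after the same thinning. After thinning, 3 or more stromal UMIs were seen in 30.1% of deep barcodes, 11.0% of those with 1000 to 2000 UMIs and 4.66% of those with 300 to 1000 UMIs. Within these, at least 1 blood-list UMI was seen in 54 of 135 deep barcodes (exact 95% interval 31.7% to 48.8%), 150 of 455 at 1000 to 2000 UMIs (33.0%, 28.7% to 37.5%) and 650 of 2190 at 300 to 1000 UMIs (29.7%, 27.8% to 31.6%). Among barcodes with no stromal UMI the blood list was seen in 88.1%, 88.9% and 89.7%. The deep share was thus above the others in the pooled counts, but its interval overlapped that at 1000 to 2000 UMIs, and the difference was not tested. It lay above the share at 1000 to 2000 UMIs in 5 of the 6 libraries, on as few as 4 deep barcodes in the ΔTE DN1 and ΔTE DN2b libraries.

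**Figure D4:**
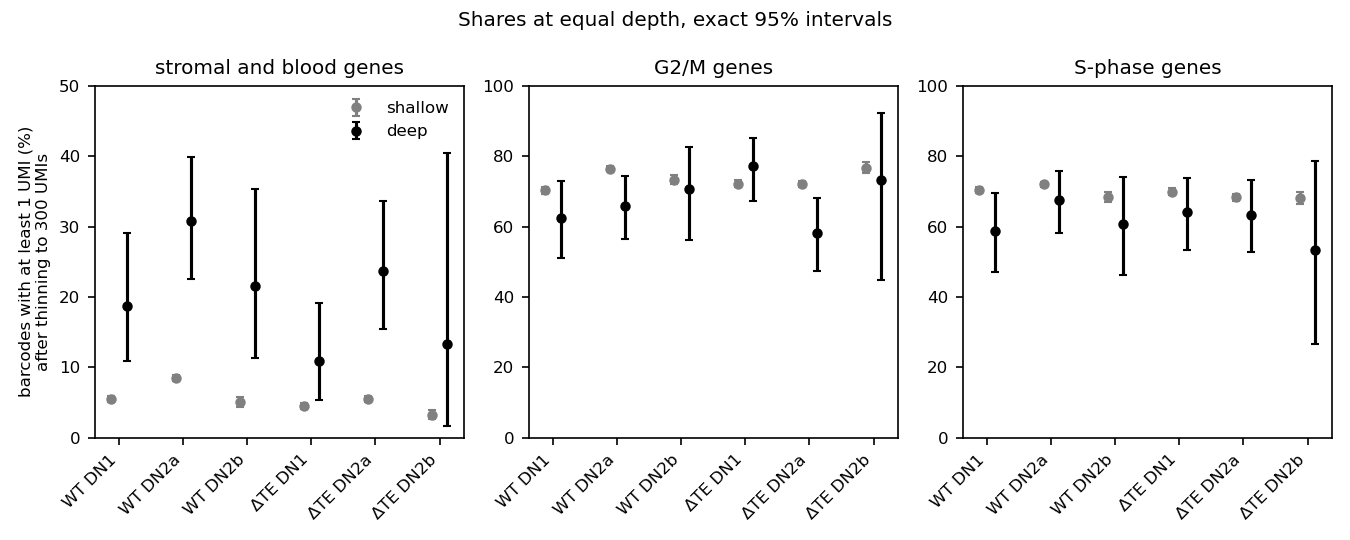
Percentage of deep (black) and shallow (grey) barcodes in each library with at least 1 UMI on both the stromal and the blood list (left), on the G2/M list (middle) and on the S-phase list (right) after thinning to 300 UMIs, with exact 95% binomial intervals. The left panel is drawn to 50% and the others to 100%. On the left all 6 deep values lie above the shallow ones, and on the right all 6 lie below.

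No cell-cycle gene tested rose in deep barcodes. Of 40 G2/M genes tested 8 fell and none rose, with a median log2 ratio of -0.22. Of 38 S-phase genes 7 fell and none rose, with a median of -0.26. Over all genes tested 4.32% fell. Without WT DN2a the list genes that fell numbered 1 and 2, against 123 of all 8937 genes tested. By DESeq2 they numbered 2 and 2, against 125 of 9118. With barcodes of 3 or more stromal UMIs per 1000 left out (chosen after seeing the data), none of either list was called. The medians were then -0.03 and -0.05. Hmmr, a spindle protein, fell by 0.43 ± 0.15, and Mcm3, a helicase subunit that licenses replication, by 0.37 ± 0.13 and in all 6 libraries. Mki67 (-0.25 ± 0.10) and Top2a (-0.16 ± 0.09), which mark cycling cells, did not pass. The G2/M list was at 5165 against 7920 CPM in WT DN2a and at 7881 against 7256 CPM in ΔTE DN1, the library with the least stromal RNA and the only one in which the deep level was the higher.

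At 300 UMIs the share with a G2/M UMI averaged 67.9% in deep and 73.5% in shallow barcodes, and the mean difference of -5.60 percentage points (SD 6.71, n = 6 libraries) was not beyond the spread (exact permutation p = 0.125). Against barcodes of 1000 to 2000 UMIs the G2/M share was lower in 6 of 6 libraries (-9.17 points, exact permutation p = 0.0312). The share with an S-phase UMI averaged 61.3% against 69.6%, lower in 6 of 6 libraries (-8.23 points, SD 4.16, exact permutation p = 0.0312, adjusted p = 0.0469). The S-phase difference did not pass against barcodes of 1000 to 2000 UMIs (-4.78 points, exact p = 0.156) or with thinning to 500 UMIs (-2.21 points, exact p = 0.281). Without thinning 95.7% or more of deep barcodes had a G2/M UMI in 5 libraries and 93.3% in ΔTE DN2b, with 79.2% to 82.6% of shallow ones. Mitochondrial UMIs were among those drawn in thinning. The higher mitochondrial share of deep than of shallow barcodes therefore tends to lower their cell-cycle shares, by an amount that was not measured.

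The gene comparison was repeated without the barcodes that bear stromal RNA. With barcodes of 2 or more stromal-list UMIs left out on both sides, 232 deep barcodes remained, and of 8394 genes tested 0 were higher (0.0%) and 0 were lower (0.0%) by edgeR, with 155 higher and 232 lower at an unadjusted p below 0.05. DESeq2 gave 0 calls as well. Some of the falls named above had larger log2 ratios here without passing, such as Anxa11 (-3.54) and Wdr78 (-2.23). These rested on few molecules, with 6 and 18 UMIs over all 448 deep barcodes. The median log2 ratio here was -0.08 for T-lineage, -0.15 for ILC and NK and -0.03 for pan-blood genes. It was 0.01 for G2/M and -0.08 for S-phase genes. Whether the differences went with the stromal barcodes was not tested. When the limit was set in proportion to depth, at 3 stromal UMIs per 1000 (chosen after seeing the data), 281 deep barcodes remained, and 6 genes were higher (0.0706%) and 3 lower (0.0353%) of 8501. The higher genes included Fstl1, Col1a2 and Cxcl12, all stromal, and Fth1 and Tubb4b, and the 3 lower genes were Il6st, Atat1 and St6galnac3. These genes were named after their values were seen. Il6st, a cytokine receptor subunit, had a log2 ratio of 1.06 ± 0.23 over all barcodes and so moved in opposite directions in the 2 comparisons. Over all barcodes, but against only those of 1000 to 2000 UMIs, 421 genes were higher (6.79%) and 109 lower (1.76%) of 6203, among them 14 of the 14 stromal genes tested. The barcodes left out above were selected on the stromal genes themselves, so no direction of the stromal list is read from this comparison, and fewer deep barcodes gave less precision.

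In those barcodes of under 3 stromal UMIs per 1000, the T-lineage list stood at 6621 CPM in deep and 6919 CPM in shallow barcodes, a log2 ratio of -0.06 (exact counting interval -0.11 to -0.02), with 3 libraries above and 3 below 0. The G2/M list had a ratio of 0.02 (-0.02 to 0.06), with 5 libraries above 0 and WT DN2a below it, the S-phase list one of -0.03 (-0.07 to 0.02) and the progenitor list one of 0.05 (-0.02 to 0.12). The ILC and NK list had a ratio of -0.13 (-0.20 to -0.06), with 3 libraries above and 3 below 0. By library it ran from -0.30 in ΔTE DN2a to 0.26 in ΔTE DN2b. The myeloid list had a ratio of -0.24 (-0.45 to -0.03). The B-cell list had one of 0.89 (0.27 to 1.45) on 27 deep UMIs, of which 15 were in ΔTE DN1. The antigen-presenting list remained low, with 14 UMIs in deep barcodes and a ratio of -1.73 (-2.60 to -0.98). Erythroid genes were slightly higher, at 557 against 479 CPM, a ratio of 0.22 (0.06 to 0.37). Each ratio above with an interval pooled UMIs over the libraries, in which deep and shallow barcodes had unequal shares. The intervals cover counting error only and not the spread between libraries.

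Unsupervised clustering of the 448 deep barcodes, without mitochondrial and Y-linked genes and Bcl11b, gave 2 groups. One of 159 was stroma-like, since 17 of the 20 stromal genes were at least 2-fold higher there than in the other group, and it held all 82 stromal barcodes and 75 of the 80 with both. It took 68 of its members from WT DN2a, 46 from ΔTE DN2a, 19 from WT DN1, 16 from WT DN2b, 6 from ΔTE DN1 and 4 from ΔTE DN2b. The other group, of 289, held 284 of the 286 blood barcodes. It had 12 T-lineage genes, 9 progenitor genes and 8 ILC or NK genes at least 2-fold higher, among them Tcf7, Il2ra, Myb, Kit and Gzma, with none of them among its 10 leading genes, and it was left without a cell type name.

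At a finer resolution the blood barcodes split further. A group of 160 was led by Slc7a11, Ffar2 and Mef2c, with Bcl11a and Spi1 further down. Mef2c, Bcl11a and Spi1 are factors of uncommitted progenitors. That group took 71 members from ΔTE DN1 and 47 from WT DN1. A group of 122 was led by Cd163l1, Tnfrsf9 and 5830411N06Rik. Further down came Cd3d, Rasgrp1, Cd3g and Cd247, which serve T-cell receptor signalling. It took 36 members from WT DN2a and 28 from WT DN2b. The T-lineage lists of the groups of 160 and 122 stood at 5139 and 8086 CPM. A group of 20 held 14 barcodes with both gene sets and 6 with blood genes, and the stromal group then had 146. The genes that define clusters are a description and no test.

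Bcl11b, the gene whose enhancer was deleted, was detected in the deep barcodes of all 6 libraries. In WT it stood at 222 CPM (exact Poisson interval 156 to 306) in DN1, 408 CPM (343 to 482) in DN2a and 895 CPM (733 to 1081) in DN2b. In ΔTE it was at 118 CPM in DN1 (interval 74.9 to 177), 219 CPM in DN2a (161 to 293) and 639 CPM in DN2b (401 to 968). The level was lower in ΔTE than in WT from each start, by 1.88-fold in DN1, 1.86-fold in DN2a and 1.40-fold in DN2b, and the counting interval of the log2 ratio included 0 in DN2b (-1.22 to 0.19), where only 22 UMIs were counted in ΔTE. With barcodes of 2 or more stromal UMIs left out the folds were 2.38, 2.48 and 1.23. There was 1 library for each condition, so genotype and library cannot be told apart.

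**Figure D5:**
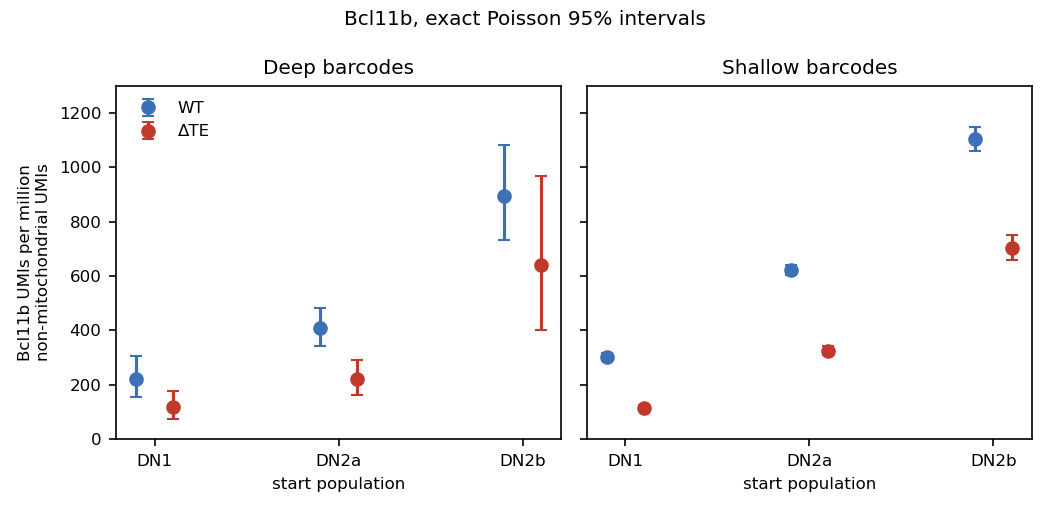
Bcl11b level in CPM in WT (blue) and ΔTE (red) libraries by start population, for deep (left) and shallow (right) barcodes, with exact Poisson 95% intervals that cover counting error only. The level is higher from DN1 to DN2a to DN2b in both genotypes, and lower in ΔTE than in WT from every start.

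Other genes were compared between genotypes by size alone. Of 3017 genes with at least 100 UMIs over the deep barcodes, 10 were more than 1.5-fold higher in ΔTE in all 3 starts (0.331%) and 17 more than 1.5-fold lower (0.563%). The 5 with the largest summed rises were Fcer1g, Ivns1abp, Clnk, Szrd1 and Inpp4b. Fcer1g, the signalling chain of Fc and natural cytotoxicity receptors, stood at 231, 234 and 145 CPM in ΔTE DN1, DN2a and DN2b and at 132, 95.3 and 16.7 CPM in WT. Zbtb16, which encodes PLZF, a regulator of innate lymphoid precursors, was also among the 10, with 549, 382 and 436 CPM in ΔTE and 312, 152 and 251 CPM in WT.

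The 5 largest falls were Mid1, Col8a1, Prune2, AC149090.1 and Samd4. Mid1, a ubiquitin ligase of microtubules, was at 1368, 426 and 477 CPM in WT and at 92.4, 200.3 and 116 CPM in ΔTE. It was found in 58 of 80 WT DN1 and 14 of 92 ΔTE DN1 deep barcodes. Shallow barcodes gave 1172, 529 and 638 CPM in WT and 107, 95.4 and 72.3 CPM in ΔTE. Col8a1 is a collagen gene, and the stromal list itself was 5675 CPM in WT DN1 and 1433 CPM in ΔTE DN1, but 13474 and 14229 CPM in the DN2a libraries. Its part in these genes was not tested. In deep barcodes with under 3 stromal UMIs per 1000, 7 genes were higher (0.409%) and 5 lower (0.292%) of 1710. Zbtb16, Ivns1abp, Clnk and Inpp4b were among the 6 higher genes shared by both comparisons, and Mid1 and Alkbh1 were the 2 lower ones. Fcer1g, the largest summed rise, and Szrd1 were not shared. WT DN2b held only 2 UMIs of Fcer1g. ΔTE DN2b gave only 1 to 5 UMIs of each of the 5 largest falls and of Fcer1g, so these values carry wide counting error.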

How the data were processed

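The authors deposited a matrix of raw UMI counts per gene and barcode for each of the 6 libraries, with 28048 genes. The submitters' processing notes name the mouse build mm9, and the aligner is not given in the sources used here. No coordinates are printed, because the reference at hand is of another build. The total per library was 8007395 to 14555100 UMIs, and barcodes under 200 genes were dropped. CPM is per 1000000 UMIs outside genes named mt-. Members and gene lists were chosen with earlier results of these data known. Counts were summed per library over deep and over shallow barcodes and tested with edgeR 4.0.16 in R 4.3.3 (TMM scaling, filterByExpr, quasi-likelihood F test, library term). The SE is the log2 ratio divided by the square root of F. The fit was tested on simulated data, with 200 of 8923 genes changed, all of above-median level. The simulation had a single dispersion and no differences between libraries beyond their totals. It recovered 81.0% of the genes changed 2-fold and 100% of those changed 4-fold, with 4 false calls. Recovery of genes with few UMIs was not tested. Named genes are the 10 highest and 10 lowest log2 ratios among genes at an adjusted p below 0.05, with at least 300 UMIs and the same direction in 6 libraries, plus list genes. For genotype they are the 5 highest and 5 lowest summed log2 ratios. Others are said to be named after their values were seen. Barcodes of under 300 UMIs, 9487 in all and all of them shallow, were left out of thinned shares. Clusters came from scanpy 1.11.5 (2000 variable genes, 30 components, 30 neighbours, Leiden resolution 0.5). No doublet caller was run. Alternatives included DESeq2 1.42.0. Xist was not among the listed genes, so the planned share with Xist and Y-linked genes was not analysed here. One gene called in the comparison without barcodes of high stromal level is not reported here.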

Additional observations from a re-analysis of the deposited data

How the results depend on the processing

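The 931 higher and 394 lower genes became 0 and 0 with barcodes of 2 or more stromal UMIs left out (0 and 0 by DESeq2, chosen after seeing the data). They became 6 and 3 with 3 or more per 1000 left out, and 5 and 0 with the comparison also held to 1000 to 2000 UMIs, both chosen after seeing the data (146 lower at an unadjusted p below 0.05 in the latter). Against all barcodes of 1000 to 2000 UMIs there were 421 and 109, and with at most 20% mitochondrial UMIs 254 and 58. With deep set above 3000 UMIs 600 genes were higher. Lower genes numbered 125 by DESeq2 and 907 with no filter on low counts. With each library left out in turn, higher genes ran from 547 to 1127 and lower genes from 123 to 485, both lowest without WT DN2a. Fewer barcodes also lower the precision of these fits.

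Deep barcodes as a share of the filtered ones, in the order WT DN1, DN2a, DN2b and ΔTE DN1, DN2a, DN2b, were 2.12%, 1.45%, 2.69%, 2.70%, 2.32% and 1.43% above 1500 UMIs (1252 in all). Above 3000 UMIs they were 0.191%, 0.204%, 0.339%, 0.183%, 0.188% and 0.0878% (122 in all). With at least 300 genes they were 1.23%, 1.15%, 1.78%, 1.41%, 1.36% and 0.861%, on a smaller denominator and the same 448. With no mitochondrial limit they were 2.83%, 0.665%, 3.64%, 1.59%, 1.80% and 2.80% (1700 in all), and with at most 20% they were 0.228%, 0.520%, 0.848%, 0.313%, 0.512% and 0.211% (144 in all).

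The share with stromal and blood genes differed by 4.31 points with 2 UMIs required on each list (exact permutation p = 0.0625), and by 12.9 to 16.1 points with each library left out, where 5 libraries cannot give a p below 0.0625. The S-phase share differed by -2.21 points at 500 UMIs, -4.78 points against 1000 to 2000 UMIs, and -8.98 to -6.92 points with each library left out. The G2/M share differed by -9.17 points against 1000 to 2000 UMIs (exact permutation p = 0.0312). Without thinning, the differences were 16.4 points for G2/M and 15.7 points for S phase, reversed because deeper barcodes hold more UMIs of every gene. Clusters numbered 4 at resolution 1.0. The lower Bcl11b level in ΔTE kept its direction under the 4 alternatives run (TMM scaling, all UMIs as the total, barcodes with stromal UMIs left out, and deep above 3000 UMIs), with log2 ratios of -1.34 to -0.18. The gene comparison, the list ratios given by library and the permutation tests compared deep and shallow barcodes within library. List levels over all barcodes, class levels and the total counts of blood genes within stromal barcodes were pooled over libraries. Beyond the pairing within library, by replicate number, no paired analysis was possible because each condition had 1 library.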
